A study of Homo sapiens with 10 samples.

Results

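SDPR (now named CAVIN2) had a 2.48-fold higher transcript level after 1 h of dexamethasone in GFP-transfected A549 cells, a human lung adenocarcinoma line. It passed the test with replicate numbers as a block in the 6 GFP libraries, where PTRF, PRKCDBP, CAV1 and CAV2 did not, and it did not pass in the fit of all 10 libraries. In cells with added EP300 the pairs of libraries disagreed. The 5 genes described here, SDPR, PTRF (now CAVIN1), PRKCDBP (now CAVIN3), CAV1 and CAV2, were taken by symbol from a deposited table of 25538 genes. All 5 passed the filter on low counts, as did 19433 genes in all.

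Caveolae are flask-shaped pits of the plasma membrane. Caveolins, hairpin membrane proteins, build the bulb together with cholesterol, and cavins are soluble coat proteins that assemble on it from the cytosol. Caveolae buffer membrane tension, take part in endocytosis and lipid uptake, and hold signalling proteins, and in lung they are abundant in endothelium and in flat alveolar type I cells. The glucocorticoid receptor is a transcription factor that dexamethasone activates, and EP300 (p300) is a histone acetyltransferase that acts as its coactivator.

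RNA was sequenced from A549 cells transfected with 1 ug of a vector for EP300 fused to GFP (called P300) or for GFP alone. All groups grew in charcoal-stripped serum, received 100 nM dexamethasone (Dex) or ethanol (EtOH) for 1 h at 48 h after transfection, and were fixed in ethanol and sorted for GFP. The groups are P300 Dex (n = 2), P300 EtOH (n = 2), GFP Dex (n = 3) and GFP EtOH (n = 3). The labels do not say whether replicates were separate transfections, so p-values measure the spread between libraries, which may be technical. Sorting kept transfected cells only, and how much EP300 each cell made is not known.

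Totals were 9215550 to 13122367 counts in 9 libraries, and 2278717 in P300 EtOH replicate 2, where 11861 genes had no count and 3 counts equal 1.32 counts per 1e+06 of its total. Levels are given as CPM, counts per 1e+06 on TMM-scaled library sizes. EP300 took 28.8% and 2.42% of counts in P300 Dex, 28.6% and 13.4% in P300 EtOH, and 0.0271% to 0.0386% in the 6 GFP libraries. Ribosomal RNA genes took 5.32% and 4.24% of counts in GFP Dex 2 and GFP EtOH 2. In the other 8 libraries they took 0.493% to 1.77%. These genes were picked by nuclear and mitochondrial ribosomal RNA names, which this share does not separate. Epithelial markers, the check of the labelled cell type, summed to 6531 to 22297 CPM in P300 Dex, 6774 to 11032 CPM in P300 EtOH, 12025 to 17880 CPM in GFP Dex and 11556 to 16870 CPM in GFP EtOH. Endothelial markers (5 of 7 in the table) summed to 6.51 to 13.9 CPM in P300 Dex, 8.21 to 41.1 CPM in P300 EtOH, 1.86 to 2.31 CPM in GFP Dex and 1.22 to 3.50 CPM in GFP EtOH, and TEK was at 0 in GFP Dex. Fibroblast markers (6 of 6) summed to 53.2 to 55.3 CPM in P300 Dex, 63.4 to 81.4 CPM in P300 EtOH, 13.8 to 28.8 CPM in GFP Dex and 16.7 to 29.0 CPM in GFP EtOH. COL1A1 made up most of these fibroblast sums in every group. KRT8, KRT18 and KRT7 together made up most of the epithelial sums in every group. EPCAM averaged 8.68 CPM in P300 Dex and 14.8 CPM in P300 EtOH. In GFP Dex and GFP EtOH it averaged 2.83 and 1.90 CPM. Alveolar type I markers (3 of 6) summed to 12.1 to 14.4 CPM in P300 Dex, 4.47 to 12.5 CPM in P300 EtOH, 7.58 to 9.03 CPM in GFP Dex and 6.80 to 12.5 CPM in GFP EtOH, with HOPX at 0 in all but P300 Dex. In bulk RNA, fewer cells that express a gene and less of its RNA per cell cannot be told apart.

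Promoter sequence is shown for SDPR, the member that responded to dexamethasone, and for the neighbours CAV1 and CAV2, whose levels moved together across libraries. The RefSeq table (GRCh38.p14) held 1 start for SDPR, 3 for CAV1 and 2 for CAV2, and the 250 bases before the first listed start are given. SDPR lies at chr2:191847089-191847338 on the minus strand, CAV1 at chr7:116524759-116525008 and CAV2 at chr7:116499488-116499737, both on the plus strand. Capitals mark matches on either strand to AGAACA (the core of a glucocorticoid receptor site), GGGCGG (the Sp1 GC box) and CANNTG (the E-box).
SDPR: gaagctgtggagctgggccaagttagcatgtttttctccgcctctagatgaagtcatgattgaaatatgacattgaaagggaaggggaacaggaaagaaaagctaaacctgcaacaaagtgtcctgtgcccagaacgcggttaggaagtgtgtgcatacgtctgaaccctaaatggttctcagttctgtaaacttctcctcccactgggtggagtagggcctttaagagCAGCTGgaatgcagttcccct
CAV1: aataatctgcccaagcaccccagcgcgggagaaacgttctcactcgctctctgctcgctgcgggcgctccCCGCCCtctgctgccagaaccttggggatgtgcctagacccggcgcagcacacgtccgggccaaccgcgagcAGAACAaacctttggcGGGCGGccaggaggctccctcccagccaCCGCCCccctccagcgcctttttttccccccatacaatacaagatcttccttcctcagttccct
CAV2: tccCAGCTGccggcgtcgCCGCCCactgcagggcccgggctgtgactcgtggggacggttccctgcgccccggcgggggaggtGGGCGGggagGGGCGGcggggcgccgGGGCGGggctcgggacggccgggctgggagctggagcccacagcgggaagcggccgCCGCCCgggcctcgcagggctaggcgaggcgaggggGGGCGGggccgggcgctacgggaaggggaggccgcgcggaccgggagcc
The SDPR window was less rich in G and C than the others, with 48.0% GC and 4 CpG, against 63.6% and 18 for CAV1, 83.2% and 35 for CAV2, and medians of 58.0% and 11 over 35116 RefSeq promoter windows of the same length. GGGCGG occurred 0 times before SDPR, 3 times before CAV1 and 6 times before CAV2, and 42.6% of all windows held it. AGAACA was found only before CAV1, at -108 from the start, and 12.4% of all windows held it. The full palindrome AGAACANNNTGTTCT was in none of these 3 windows and in 0.00285% of all windows. TATAAA was in none of the 3 and in 10.7% of all windows. CANNTG was at -21 before SDPR and at -247 before CAV2, and 61.8% of all windows held it. These matches describe letters in a short window, and distant sites were not examined.

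The first comparison was dexamethasone against ethanol in GFP cells, the response of A549 cells without added EP300. SDPR, cavin-2, also called serum deprivation response protein, bends membranes and shapes caveolae. It stood at 134, 144 and 138 CPM in GFP Dex, against 55.1, 61.6 and 50.9 CPM in GFP EtOH. The lowest Dex library was more than 2 times the highest EtOH library, so the groups did not overlap. By group, SDPR averaged 139 ± 4.94 CPM in GFP Dex and 55.9 ± 5.36 CPM in GFP EtOH (SD, n = 3 each). Raw counts behind these levels were 1729, 1993 and 1881 in GFP Dex, against 721, 773 and 666 in GFP EtOH. The difference within libraries of the same replicate number, on the log2 CPM scale, was 1.28, 1.22 and 1.44, higher in 3 of 3 pairs.

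Replicate numbers paired the libraries, and the fit of the 6 GFP libraries with the number as a block gave SDPR a log2 fold change of 1.31 ± 0.10 (edgeR's quasi-likelihood test, adjusted p = 2.8e-05). The value after ± is the SE for a log2 fold change and the SD for a level. That is a 2.48-fold higher level, with a 95% interval of 2.14 to 2.87. In that fit 277 of 16697 genes passed an adjusted p of 0.05, or 1.66%, and 1 of the 5 members did. Rises made up 171 of the 277 (1.02%), and SDPR ranked 5 by p among all genes tested and 48 by fold among the rises. The fit of all 10 libraries without the block gave the same size with a larger error, 1.31 ± 0.30, with 0 of 5 members and 0% of genes past the threshold. There SDPR had an unadjusted p of 0.001025, rank 5 of 19433 genes (edgeR adjusted p = 1), and 113 genes had an unadjusted p under 0.05. Higher values in every GFP Dex library than in any GFP EtOH library were seen for 4.03% of genes.

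An RNA named AC098617.1 lies antisense across SDPR. It had 84, 137 and 109 counts in GFP Dex, against 100, 105 and 95 in GFP EtOH, and its counts were far below those of SDPR in all 6 libraries. Whether the authors counted by strand is not given in the sources used here. Reads of SDPR and of the antisense RNA may therefore be mixed.

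**Figure D1:**
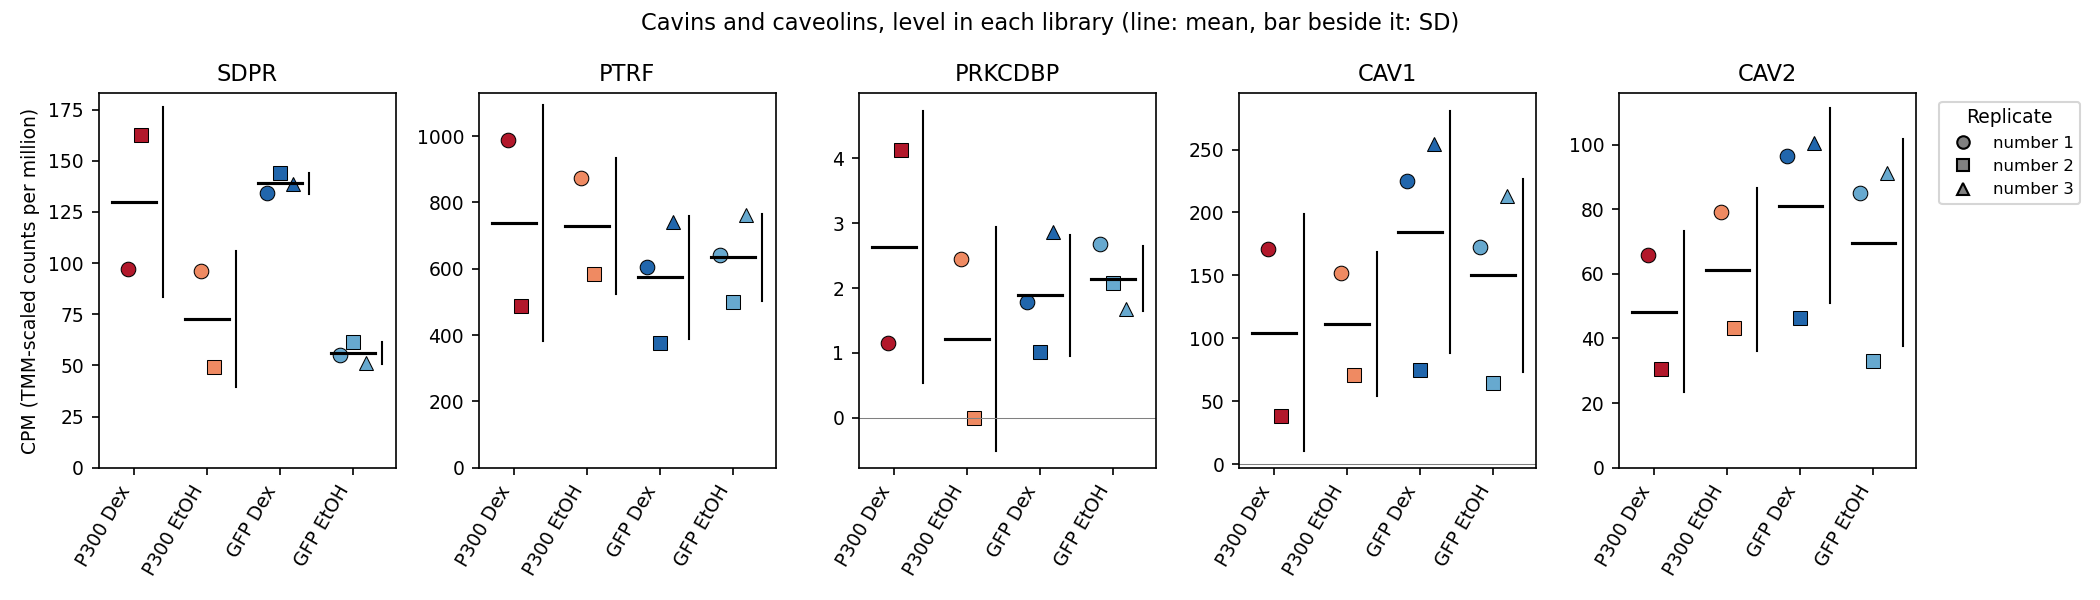
Level of each gene in CPM on a linear axis in each library, by group. Points are libraries, with the shape giving the replicate number, horizontal lines are means and the vertical bars beside them are SD. SDPR lies at 134 to 144 CPM in GFP Dex and at 50.9 to 61.6 CPM in GFP EtOH, while CAV1 and CAV2 are lowest in the libraries of number 2.

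PTRF, cavin-1, is needed for caveolae to form and is the most general cavin coat protein. It had 607, 375 and 741 CPM in GFP Dex, against 641, 500 and 763 CPM in GFP EtOH. The ranges overlapped almost wholly, and the libraries differed more by number than by treatment. Its differences within pairs were -0.08, -0.42 and -0.04, below 0 in 3 of 3 pairs, and the blocked fit gave -0.18 ± 0.10 (edgeR adjusted p = 0.381).

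PRKCDBP, cavin-3, binds protein kinase C delta. It was close to the limit of detection, with 23, 14 and 39 counts in GFP Dex, against 35, 26 and 22 in GFP EtOH. Its levels were 1.79, 1.01 and 2.87 CPM in GFP Dex, against 2.67, 2.07 and 1.68 CPM in GFP EtOH. No direction was shared by the pairs, and the blocked log2 fold change was -0.23 ± 0.35 (edgeR adjusted p = 0.799).

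CAV1, the caveolin that forms the bulb in non-muscle cells, had 225, 74.7 and 254 CPM in GFP Dex, against 173, 64.8 and 213 CPM in GFP EtOH. The groups overlapped because the number 2 library was low in each, yet within each pair the Dex library was the higher one, by 0.38, 0.20 and 0.26 on the log2 scale (mean 0.28 ± 0.09, SD, n = 3 pairs). The blocked fit gave 0.28 ± 0.09 with a 95% interval of 0.08 to 0.47, and CAV1 missed the threshold (edgeR adjusted p = 0.189). With the number 2 pair left out, CAV1 passed at 0.30 (edgeR adjusted p = 0.00124), in a fit of 4 libraries that called 1198 genes. The blocked fit with all pairs kept called 277 of 16697 genes (1.66%), and CAV1 was not among them. The fit of 4 libraries was added after seeing the data and shares its libraries with the fit of all pairs. Its CAV1 call is therefore not independent evidence of a rise.

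CAV2, which needs CAV1 to reach the cell surface and joins it in mixed oligomers, had 96.6, 46.3 and 101 CPM in GFP Dex, against 85.0, 33.0 and 91.1 CPM in GFP EtOH. Its differences within pairs were 0.18, 0.49 and 0.14, again above 0 in 3 of 3. The blocked value of 0.26 ± 0.11 did not pass (edgeR adjusted p = 0.281).

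**Figure D2:**
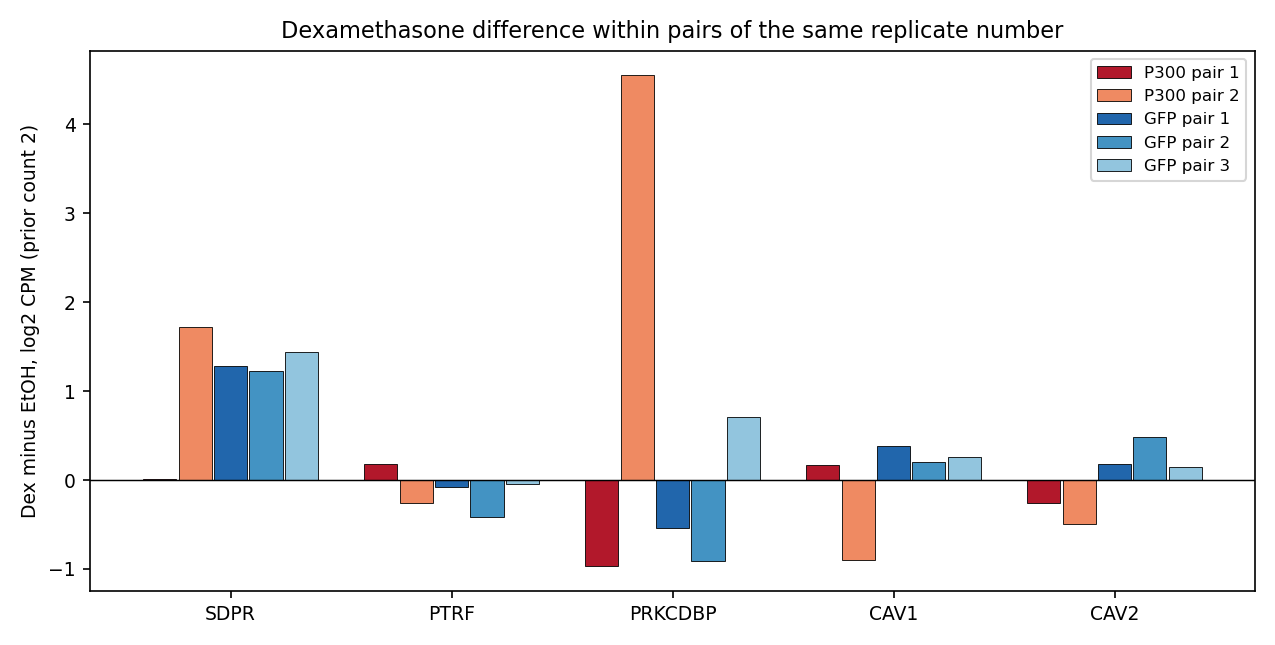
Dex minus EtOH difference in log2 CPM (prior count 2) within each pair of libraries with the same replicate number, for P300 and GFP cells. Bars are single pairs and carry no error. The P300 bars of SDPR lie at 0.01 and 1.72 and its 3 GFP bars between 1.22 and 1.44, and the tall PRKCDBP bar of P300 pair 2 is set against an EtOH library with 0 counts.

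Per kilobase of exon, with all annotated isoforms joined to give the length, PTRF was the most abundant member in every group. In GFP Dex the mean levels were 150 CPM per kb for PTRF, 45.2 for CAV1, 43.0 for SDPR, 11.7 for CAV2 and 1.13 for PRKCDBP. In GFP EtOH they were 166 ± 34.3 for PTRF, 36.8 ± 18.8 for CAV1, 17.3 ± 1.66 for SDPR, 10.1 ± 4.61 for CAV2 and 1.28 ± 0.299 for PRKCDBP (SD, n = 3). In GFP EtOH the means of CAV1 and SDPR, neighbours in this order, were no further apart than about the SD of CAV1. In GFP Dex the means nearly coincided, but the levels within libraries did not. There SDPR per kilobase was 75.4%, 244% and 68.8% of CAV1, against 40.3%, 120% and 30.2% in GFP EtOH. Among 18863 tested genes with a known length, SDPR stood at the 96.4 percentile in GFP Dex and the 89.1 percentile in GFP EtOH. PTRF was between the 99.3 and 99.6 percentiles in all 4 groups, CAV1 between 93.2 and 96.6, CAV2 between 73.8 and 82.9, and PRKCDBP between 26.1 and 38.0.

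The ratio of the cavin transcripts also differed by treatment in GFP cells. SDPR per kilobase was 26.2%, 45.6% and 22.2% of PTRF in GFP Dex, against 10.2%, 14.6% and 7.91% in GFP EtOH. In P300 cells it was 11.6% and 39.6% of PTRF with Dex, against 13.1% and 10.0% with EtOH. The ratio was higher with Dex in 3 of 3 GFP pairs and in 1 of 2 P300 pairs. CAV1 was 2.11 to 4.40 times CAV2 per kilobase over the 10 libraries.

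The second comparison was dexamethasone against ethanol in cells with added EP300. SDPR had 96.9 and 162 CPM in P300 Dex, against 96.1 and 49.2 CPM in P300 EtOH. The pairs disagreed in size: pair 1 differed by 0.01 and pair 2 by 1.72 on the log2 scale. In pair 1 EP300 held 28.8% and 28.6% of counts with Dex and EtOH, and in pair 2 it held 2.42% and 13.4%. SDPR had 1498 counts in P300 Dex 2, against 110 in P300 EtOH 2, the shallow library. The medians of all genes differed within these pairs by 0.04 and 0.48. The antisense RNA AC098617.1 had 375 and 75 counts in P300 Dex, against 65 and 21 in P300 EtOH. What part EP300 share, depth or antisense reads had in the SDPR values was not tested.

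Over both pairs SDPR had a log2 fold change of 0.83 ± 0.36 with a 95% interval of 0.03 to 1.63 and did not pass (edgeR adjusted p = 0.364). None of the 5 members passed, beside 0% of all genes, and 2569 genes had an unadjusted p under 0.05. The blocked fit of the 4 P300 libraries gave SDPR 0.83 ± 0.41, with 6 of 16630 genes called (0.0361%) and no member among them. Without P300 Dex 2 the value was 0.40, and without P300 EtOH 1 it was 1.39.

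PTRF had 988 and 486 CPM in P300 Dex, against 872 and 583 CPM in P300 EtOH, a log2 fold change of 0.02 ± 0.41. CAV1 had 171 and 38.2 CPM in P300 Dex, against 152 and 71.1 CPM in P300 EtOH, or -0.10 ± 0.76. CAV2 had 65.9 and 30.7 CPM in P300 Dex, against 79.1 and 43.4 CPM in P300 EtOH, or -0.35 ± 0.57. All 3 genes were lower in the number 2 library of each group, and their groups overlapped. PRKCDBP had 11 and 38 counts in P300 Dex, against 22 and 0 in P300 EtOH. The floor of 3 counts for that 0 is 1.32 counts per 1e+06 of the library's total, and no fold is given here for that pair. The bar drawn for it among the pair differences rests on the prior count and is no measured fold.

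The difference between the dexamethasone responses in P300 and GFP cells was tested directly as an interaction. For SDPR it was -0.49 ± 0.47 on the log2 scale, with a 95% interval of -1.51 to 0.54 (edgeR adjusted p = 0.907). The interval spans a much smaller and a larger response with EP300, so these libraries did not tell the responses apart. For CAV2 it was -0.57 ± 0.73 with an interval of -2.18 to 1.04, for CAV1 -0.40 ± 0.98 and for PTRF 0.16 ± 0.54. No member passed, beside 0% of all genes and 1697 genes at an unadjusted p under 0.05.

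**Figure D3:**
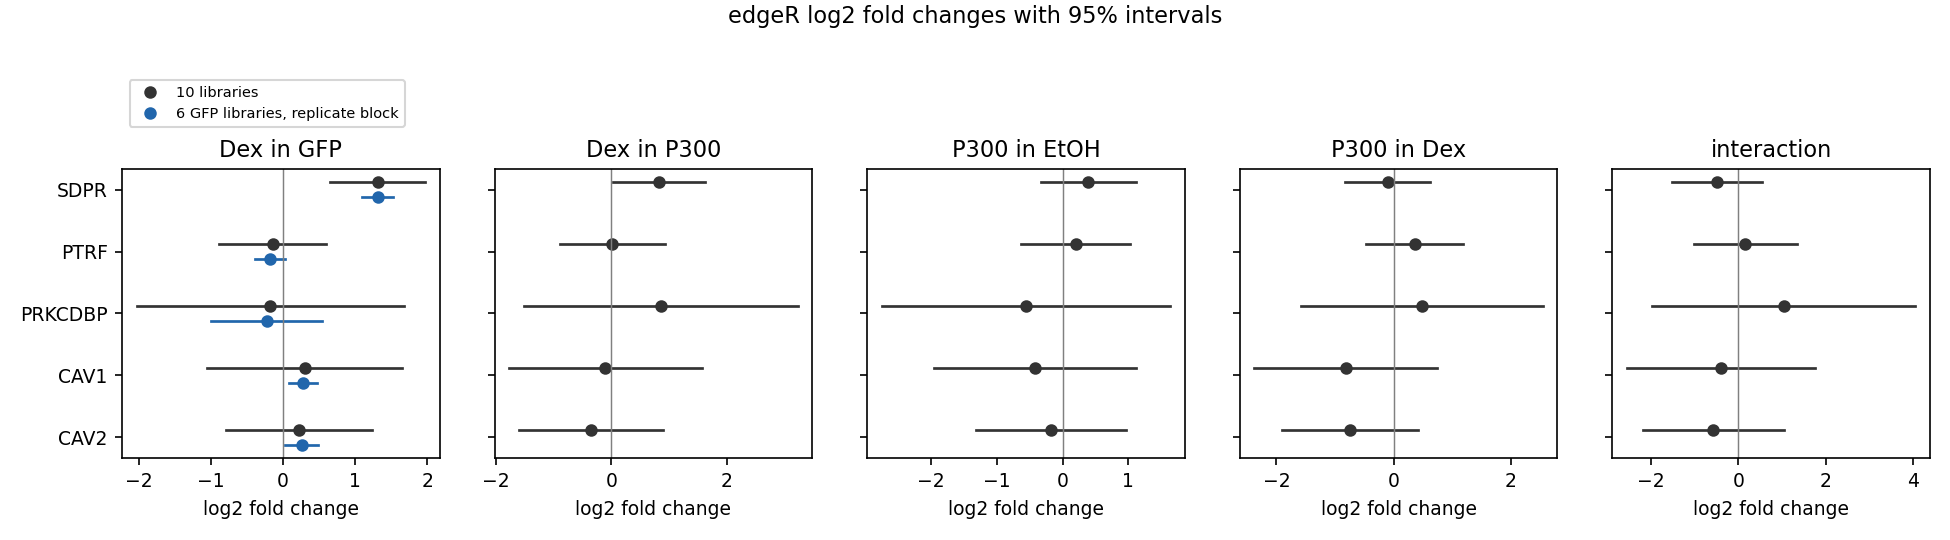
Log2 fold changes of the 5 genes in the 5 comparisons, from edgeR, with 95% intervals as horizontal lines; the axis range differs by panel. Dark points are the fit of 10 libraries and blue points the 6 GFP libraries with the replicate block. The SDPR interval for Dex in GFP is 0.66 to 1.97 in the fit of 10 and 1.10 to 1.52 in the blocked fit, and CAV1 and PRKCDBP have the wide intervals.

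Added EP300 was then compared with GFP alone in ethanol. SDPR stood at 96.1 and 49.2 CPM in P300 EtOH, against 55.1, 61.6 and 50.9 CPM in GFP EtOH. The P300 libraries lay on either side of the GFP range, and by number the differences were 0.80 and -0.32. The log2 fold change was 0.39 ± 0.33 with a 95% interval of -0.33 to 1.11 (edgeR adjusted p = 0.486). None of the 5 members passed, beside 2.78% of genes called, 1.60% higher and 1.19% lower. Without P300 EtOH 1 the SDPR value turned to -0.21, and without P300 EtOH 2 it was 0.71.

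PTRF averaged 728 ± 205 CPM in P300 EtOH (n = 2) and 635 ± 131 CPM in GFP EtOH (n = 3), a log2 fold change of 0.20 ± 0.38 (SE; edgeR adjusted p = 0.776). CAV1 averaged 112 ± 57.2 CPM in P300 EtOH and 150 ± 76.6 CPM in GFP EtOH, or -0.42 ± 0.70 (edgeR adjusted p = 0.740). By number CAV1 differed by -0.18 and 0.13, and with the block in the libraries compared its value was 0.017 ± 0.29. CAV2 averaged 61.2 ± 25.2 CPM in P300 EtOH and 69.7 ± 32.0 CPM in GFP EtOH. These means lie within 1 SD of each other. Fibroblast and endothelial marker sums, given above, were higher in the P300 EtOH libraries than in GFP EtOH, and their part in the member values was not tested.

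The same comparison was made with dexamethasone in both groups. SDPR had 96.9 and 162 CPM in P300 Dex, against 134, 144 and 138 CPM in GFP Dex. The GFP values fell between the P300 values, and the log2 fold change was -0.10 ± 0.33 with a 95% interval of -0.82 to 0.62 (edgeR adjusted p = 0.937). No member passed, beside 0.0103% of genes. The replicate block within the libraries compared raised the share called to 0.856% (150 of 17528 genes) without adding a member.

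CAV1 and CAV2 were the members with the lowest fold changes in this comparison. CAV1 had 171 and 38.2 CPM in P300 Dex, against 225, 74.7 and 254 CPM in GFP Dex. By number it was lower by 0.40 and 0.97 on the log2 scale, and CAV2 by 0.55 and 0.59. The fits gave CAV1 -0.82 ± 0.71 (edgeR adjusted p = 0.693) and CAV2 -0.75 ± 0.53 (edgeR adjusted p = 0.612). Without P300 Dex 2 the CAV1 value was -0.17, and without P300 Dex 1 it was -2.30. PTRF averaged 737 ± 355 CPM in P300 Dex (n = 2) and 574 ± 185 CPM in GFP Dex (n = 3), or 0.36 ± 0.38. The ethanol and dexamethasone comparisons of EP300 share no library, while each shares libraries with the dexamethasone comparisons.

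CAV1 and CAV2, neighbours on chromosome 7, varied more between replicate numbers than between groups. In GFP Dex the number 2 library lay below the mean of the other numbers by 1.68 log2 units for CAV1 and 1.09 for CAV2. In GFP EtOH it lay below by 1.56 for CAV1 and 1.41 for CAV2. For CAV1 these gaps stood at percentiles 0.545 and 0.988 among all tested genes, and 3.34% and 5.85% of genes were lower by more than 1 log2 unit. PTRF shared the direction, with -0.84 in GFP Dex and -0.48 in GFP EtOH, and SDPR did not, with 0.08 and 0.22. The PTRF gaps stood at percentiles 5.55 and 23.0 among all tested genes. In P300 the number 2 libraries were lower for CAV1 by 2.16 with Dex and 1.09 with EtOH, where 25.0% and 36.9% of genes were lower by more than 1 log2 unit. The GFP libraries of number 2 are those with 5.32% and 4.24% of counts on ribosomal RNA genes, and its part in the caveolin levels was not tested.

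The correlation of log2 CPM between CAV1 and CAV2 was 0.97 over the 10 libraries and 0.98 over the 6 GFP libraries. CAV1 and PTRF had r = 0.69 over 10 libraries and 0.86 over the GFP libraries. Among the r of CAV1 over 10 libraries with genes of mean 1 CPM or more, CAV2 stood at percentile 99.9. PTRF stood at percentile 88.0. SDPR had r = -0.09 with CAV1 and -0.03 with CAV2 over 10 libraries. Libraries of the same number deviated together and treatments repeat, so the points are not independent and these values are descriptions.

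**Figure D4:**
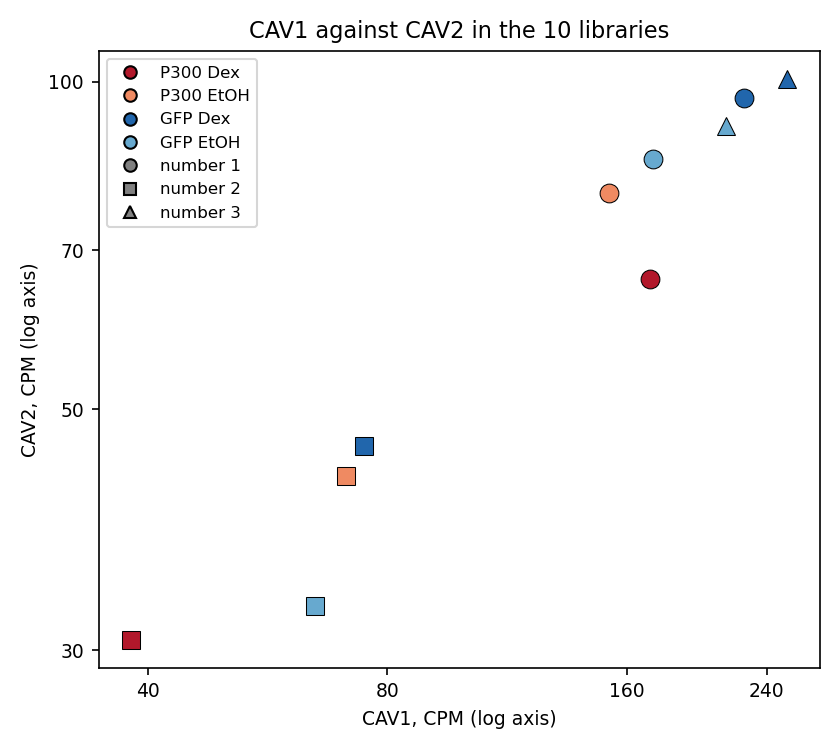
CAV1 against CAV2 in CPM, both on log axes, with 1 point per library; colour is the group and shape the replicate number. The 4 libraries of number 2 lie at 38.2 to 74.7 CPM of CAV1, and the 6 others at 152 to 254 CPM.

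The genes whose log2 CPM was most like that of SDPR over the 10 libraries, among 16411 genes with a mean of at least 1 CPM, were SOCS1 (r = 0.92), ACSL1 (0.91) and ZFAND5 (0.90). SOCS1 is a suppressor of cytokine signalling, and ACSL1 activates long-chain fatty acids. For the other members the most similar genes were NIPAL4 for PTRF (0.96), LINC01001 for PRKCDBP (0.97), CSNK2A1 for CAV1 (0.99) and PHAX for CAV2 (0.99). The log2 CPM of PRKCDBP was -2.45 in P300 EtOH 2, where it had 0 counts, and at least 0.26 in every other library. How far its r rests on that library was not tested.

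Other genes of caveolae and endocytosis were taken from 5 lists and read in the blocked fit of the 6 GFP libraries, beside a median log2 fold change of 0.00 over all genes, of which 1.66% passed and 1.02% passed as higher. Of the caveola neck and scaffold partners, 0 of 10 tested genes passed, with a median of -0.06. PACSIN2, an F-BAR protein that shapes the caveola neck, came nearest at 0.39 ± 0.09 (edgeR adjusted p = 0.0584), with 140 ± 5.07 CPM in GFP Dex and 107 ± 8.36 CPM in GFP EtOH (SD, n = 3 each). EHD1, an endocytic ATPase, had -0.31 ± 0.12. Of the flotillin and stomatin family, 1 of 5 rose. It was STOM, stomatin, a hairpin membrane protein like the caveolins. STOM had 175 ± 22.8 CPM in GFP Dex and 104 ± 5.42 CPM in GFP EtOH. Its log2 fold change was 0.75 ± 0.11 (edgeR adjusted p = 0.00389). In the fit of all 10 libraries STOM had 0.76 ± 0.34 and did not pass.

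Of the signalling proteins reported in caveolae or bound by cavins, 1 of 11 rose. It was TGFBR1, the type I receptor for TGF-beta, with 79.9 ± 26.1 CPM in GFP Dex and 54.8 ± 14.4 CPM in GFP EtOH, a log2 fold change of 0.53 ± 0.10 (edgeR adjusted p = 0.0208). In the fit of all 10 libraries TGFBR1 had 0.54 ± 0.40 and did not pass. Its groups overlapped as unpaired values, and no gene of this list passed without the number 1 pair. YES1, a Src family kinase, had 0.40 ± 0.13 and did not pass. None of 15 clathrin coat and AP2 adaptor genes passed, and CLTC, the clathrin heavy chain, had 0.25 ± 0.09. The 6 glucocorticoid receptor targets kept as a check all rose, with a median of 1.59, and TSC22D3 had the highest value at 2.56 ± 0.26. In the fit of all 10 libraries all 6 were above 0, with a median of 1.53, and none passed. These targets are known for this response and are not independent evidence. Per pair, their median difference was 0.61 and 1.37 in the P300 pairs 1 and 2, and 1.95, 1.36 and 1.51 in the GFP pairs. In P300 pair 1, where SDPR differed by 0.01, 5 of the 6 were above 0.

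**Figure D5:**
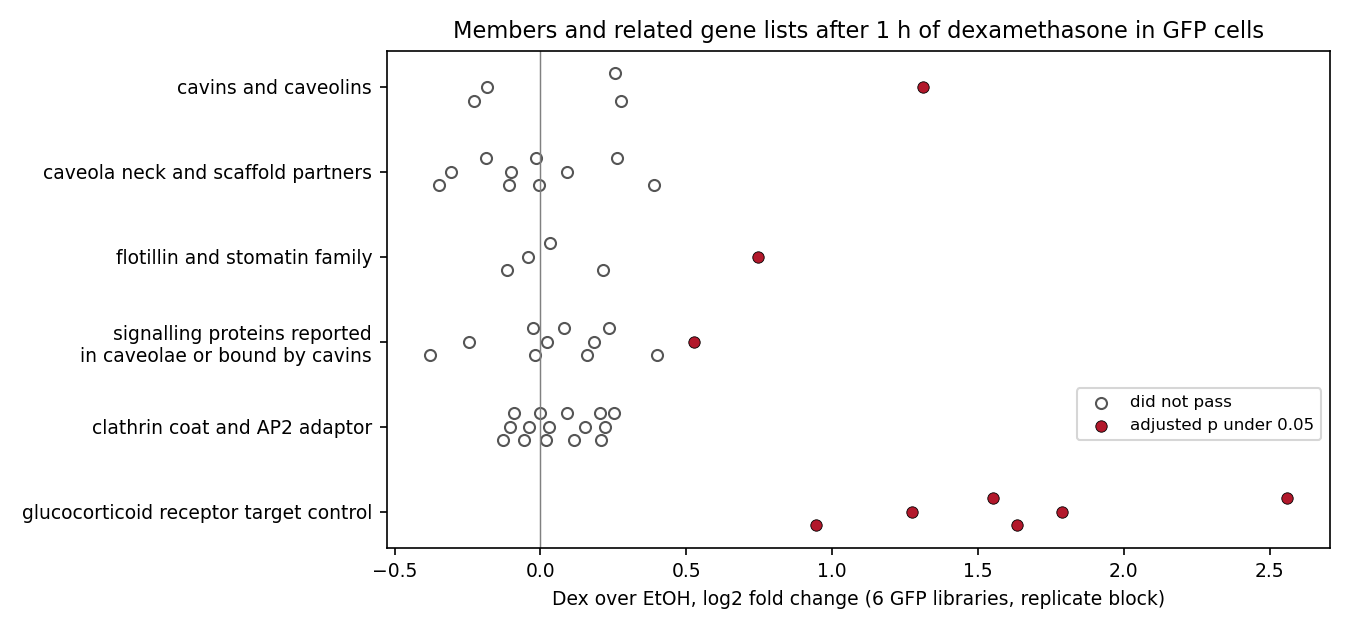
Log2 fold change of Dex over EtOH in GFP cells for the 5 members and 5 gene lists, from the 6 GFP libraries with the replicate block. Each circle is a gene, filled where its edgeR adjusted p is under 0.05. SDPR at 1.31 is the only filled circle among the members, STOM at 0.75 and TGFBR1 at 0.53 are filled in their lists, and all 6 receptor targets are filled.

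In the comparisons of P300 with GFP, the lists held a pair of called genes. FCHO1, an F-BAR protein of early clathrin pits, averaged 101 ± 46.4 CPM in P300 EtOH (n = 2) and 15.3 ± 4.42 CPM in GFP EtOH (n = 3), and rose by 2.72 ± 0.45 on the log2 scale (edgeR adjusted p = 0.0267). No gene of its list passed when any 1 of the 6 GFP libraries was left out. With dexamethasone FCHO1 averaged 68.1 ± 36.1 CPM in P300 Dex and 14.2 ± 3.86 CPM in GFP Dex. There it did not pass in the fit of all 10 libraries, at 2.26 ± 0.44 (edgeR adjusted p = 0.0972). It passed in the blocked fit at 2.40 ± 0.49 (edgeR adjusted p = 5.1e-04). EHD4, an endocytic ATPase related to EHD2, averaged 44.7 ± 24.0 CPM in P300 EtOH and 100 ± 6.59 CPM in GFP EtOH. In the blocked fit EHD4 fell by 1.18 ± 0.35 (edgeR adjusted p = 0.0264), and it did not pass without the block (edgeR adjusted p = 0.0852). In that blocked fit 3.43% of genes and none of the 5 members passed. Blocked fits of P300 against GFP left few libraries to estimate spread, and their p-values used a spread shared across genes. Those p-values hold little of the spread of FCHO1 or EHD4 itself. EHD2, the ATPase at the caveola neck, had 227 ± 0.141 CPM in P300 EtOH and 180 ± 12.3 CPM in GFP EtOH and passed in none of the 5 comparisons without the block, nor in the 4 fitted with it.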

How the data were processed

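The unit analysed is the raw count per gene and library that the authors deposited. The submitters' processing notes list HTSeq 0.6.1p1, STAR 2.4.2a, cutadapt, DESeq2 1.10.1 and the build GRCh37, without roles. The labels' protocols name 2 sets of library kits without saying which library used which, and 10 columns of normalized counts were not used. Labels gave the groups and the replicate numbers. The members and gene lists were chosen with earlier results of these data known.

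The main test was the quasi-likelihood test of edgeR 4.0.16 (R 4.3.3) on all 10 libraries, with TMM factors, filterByExpr by group and no term but group. P-values were two-sided, adjusted by Benjamini-Hochberg over 19433 genes, with a threshold of 0.05. Log2 CPM used a prior count of 2. For a count of 0, a floor of 3 counts is stated beside it, which covers counting error only. The fits used the 0 itself, and log2 CPM added the prior count. Levels per kilobase used GENCODE 29 exon lengths, matched for 18863 genes tested. Named list genes were those past the threshold with or without the block, and otherwise those with the smallest p, of which a selection is printed; EHD2 was added after its values were seen.

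Replicate numbers paired the libraries, by the data and not by the labels. Deviations from group means correlated at r = 0.113 to 0.601 in all 13 same-number pairs, against -0.484 to 0.240 in 24 others, and mirror each other in groups of 2. Blocked values stand beside a result whose call they change. In the blocked fits of only the libraries compared that include P300 libraries, errors and p-values used a spread shared across genes. No library pair within a group differed by as little as sampling noise. Alternatives were the block, the libraries compared only, RLE factors, no filter, DESeq2 1.42.0, voom with quality weights in limma 3.58.1, EP300 removed and each library left out. The blocked GFP fit without each number was added after seeing the data. The fits were also run on simulated counts that carried no effect of replicate number, so that run cannot judge the pairing.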

Additional observations from a re-analysis of the deposited data

Results flagged for a closer look

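The dexamethasone difference of CAV2 had opposite signs in the cells with and without added EP300. It was -0.26 and -0.50 on the log2 scale in the 2 P300 pairs, and 0.18, 0.49 and 0.14 in the 3 GFP pairs, a gap of -0.651 between the pair means. The interaction term of the fit of 10 libraries was -0.57 ± 0.73 and did not pass (edgeR adjusted p = 0.95).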

How the results depend on the processing

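SDPR kept its direction for Dex in GFP under every alternative run, at 1.27 to 1.40 with each library left out, and its call depended on the fit. It passed with the replicate block within the 6 GFP libraries, in those libraries without the block (edgeR adjusted p = 0.0432) and in voom with quality weights (limma adjusted p = 0.000177), 1 member each, and not in DESeq2 (adjusted p = 0.136) or with the block in the fit of 10 (1.32 ± 0.28, edgeR adjusted p = 0.782). The genes called for Dex in GFP were 277 with the block, 7 without it in those libraries, 5 in DESeq2 and 89 in voom. With each library or number left out they ran from 0 to 1198, and members from 0 to 2. The blocked GFP value of SDPR without numbers 1, 2 and 3 was 1.34, 1.34 and 1.26, called each time, beside 363, 1198 and 248 genes. With all numbers kept, 277 genes (1.66%) were called. These fits of 4 libraries were added after seeing the data and share libraries, so their calls are not independent of each other.

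For Dex in P300 the count of genes was 6 with the block, 503 in DESeq2 and 0 to 2394 with each library left out. For P300 in EtOH it was 49 in the libraries compared only, 2440 in DESeq2 and 0 to 4187. For P300 in Dex it was 150 with the block, 0 in the libraries compared only, 14 without the filter, 712 in DESeq2, 47 in voom, 1 with EP300 removed and 0 to 499. For the interaction it was 128 in DESeq2 and 0 to 1407. No member passed in these 4 comparisons under the alternatives run.

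Signs turned in these cases. PRKCDBP for Dex in GFP was 0.0096 in voom and 0.079 in the blocked fit without number 2. PTRF for Dex in P300 was -0.029 with the block in 10 libraries, -0.064 with it in the P300 libraries, -0.0127 with RLE factors, -0.0126 in DESeq2 and -0.15 in voom, and its interaction was -0.019 in voom. For P300 in EtOH, CAV2 was 0.10 with the block in 10 libraries and 0.19 with it in the libraries compared, where CAV1, at -0.42 without the block, was 0.017. The causes were not tested.

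With each library left out, ranges crossed 0 for Dex in GFP for PTRF (-0.36 to 0.10), PRKCDBP (-0.60 to 0.13, and -0.78 at the lowest in the blocked fit), CAV1 (-0.056 to 0.68) and CAV2 (-0.11 to 0.51). For Dex in P300 they were -0.55 to 0.43 for PTRF, -0.37 to 7.86 for PRKCDBP, -1.52 to 0.60 for CAV1 and -0.98 to 0.14 for CAV2. For P300 in EtOH they were -0.21 to 0.71 for SDPR, -0.15 to 0.39 for PTRF, -7.59 to 0.12 for PRKCDBP and -0.71 to 0.11 for CAV2. For P300 in Dex they were -0.58 to 0.21 for SDPR, -0.26 to 0.72 for PTRF and -0.76 to 1.10 for PRKCDBP. For the interaction they were -0.92 to 0.077 for SDPR, -0.41 to 0.57 for PTRF, -0.19 to 8.04 for PRKCDBP and -1.82 to 0.30 for CAV1. The extreme PRKCDBP values rest on P300 EtOH 2 with its 0 counts and are no bounds. Where a P300 group is left with 1 library, it is assumed to vary like the others.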
